A study of Mus musculus with 8 samples.

Results

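The unfolded protein and amino acid stress response was followed through 36 genes taken by symbol for their known roles: 6 stress sensors and transcription factors, 13 chaperones and folding factors of the endoplasmic reticulum (ER), 5 genes of ER-associated degradation, 3 feedback targets of ATF4 and CHOP, 6 genes of amino acid synthesis and transport, and 3 aminoacyl-tRNA synthetases. All 36 were found among the 21368 gene symbols on the array. Each was well above background on all 8 arrays, so none was lost to the filter on dim probes, which left 17093 features, 12031 of them with a symbol. Each gene was read from its brightest probe.

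The cells were dermal fibroblasts, the collagen-producing cells of the skin, isolated from newborn C57BL/6 mice and grown in DMEM with serum. The 4 control samples (controls 1, 3, 6 and 8) received control oligonucleotides, and the 4 mimic samples (miR-127-3p 2, 4, 5 and 7) received synthetic oligonucleotides that mimic miR-127-3p; the numbers are those of the sample titles. For controls 3 and 6 the treatment field names both oligonucleotides, and their titles and source names give the group used here. Both groups were transfected, and no untransfected culture was analysed here. The labels do not say whether samples came from separate animals or cultures, so the p-values measure the spread between these samples, which may be technical. The series' title places the study in senescence of myofibroblasts, and the comparison asks what the mimic does to the fibroblasts' messenger RNA. The mature miR-127-3p listed by RefSeq lies at chr12:109592888-109592909 on the plus strand of GRCm38.p6, and its sequence is shown because it defines the treated group, with the seed (bases 2 to 8) in capitals.
mmu-miR-127-3p: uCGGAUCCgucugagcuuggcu

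The unfolded protein response is set off when misfolded proteins gather in the ER. Membrane sensors carry the signal: IRE1 (gene Ern1) splices the Xbp1 message, PERK (Eif2ak3) phosphorylates the initiation factor eIF2 and so favours translation of ATF4, and ATF6 is cut to release a transcription factor. ATF6 and XBP1 drive chaperones and degradation factors, while ATF4 drives genes of amino acid supply and also answers amino acid shortage through the kinase GCN2, without ER stress. Fibroblasts secrete much collagen and depend on this folding machinery.

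Fibroblast identity was checked first. All 10 fibroblast markers listed were well above background on every array; 1 was higher (Dcn) and 2 lower (Col3a1 and Pdgfra) with the mimic, and Col1a1 and Col1a2 had log2 fold changes (mimic minus control) of 0.07 (SE 0.11) and 0.06 (SE 0.08). Of 9 tested macrophage and leukocyte markers 8 were higher with the mimic, and the summed level of the list was 5.17 to 5.50 in controls and 6.00 to 6.23 with the mimic (log2); the pan-leukocyte gene Ptprc was not well above background on any array. All 7 tested cell division genes were lower (median log2 fold change -2.15, summed level 7.45 to 7.68 in controls and 5.23 to 5.57 with the mimic). Among all tested genes with a symbol 18.2% were higher and 20.1% lower. Of the other skin lists, 1 of 5 tested keratinocyte, 1 of 3 endothelial and 1 of 5 melanocyte and Schwann markers were higher. The shares of 1 of 5 are close to that 18.2%. The endothelial gene was Vwf, well above background on 2 control and 4 mimic arrays. None of 5 muscle and 5 adipocyte markers passed (limma; 0 and 0 at an unadjusted p under 0.05). The part of these marker shifts in the results below was not tested, and in bulk RNA fewer cells of a type and less RNA per cell cannot be told apart.

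Most of the response that changed went down. Of the 36 genes 18 were lower and 3 higher with the mimic (limma, Benjamini-Hochberg adjusted p under 0.05 over all 17093 features), against a background of 20.1% lower, 18.2% higher and 38.4% either way among the 12031 tested genes with a symbol (18.3%, 15.9% and 34.2% among all features). The falls lay in the ER chaperones (8 of 13), amino acid synthesis and transport (5 of 6) and tRNA synthetases (2 of 3), with 1 each in the degradation genes, the feedback targets and the transcription factors. The 3 rises were Ern1, Ppp1r15a and Syvn1. Median log2 fold changes were -0.72 for amino acid synthesis and transport, -0.45 for the synthetases, -0.44 for the chaperones, -0.29 for the feedback targets and 0.10 for both the degradation genes and the sensors and factors, beside 0.01 for all genes with a symbol. On 16 genes every mimic array lay below every control array and on 4 every mimic array lay above, where 21.0% and 17.3% of genes with a symbol did so, 38.4% either way (19.0%, 15.1% and 34.2% of all features).

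**Figure D1:**
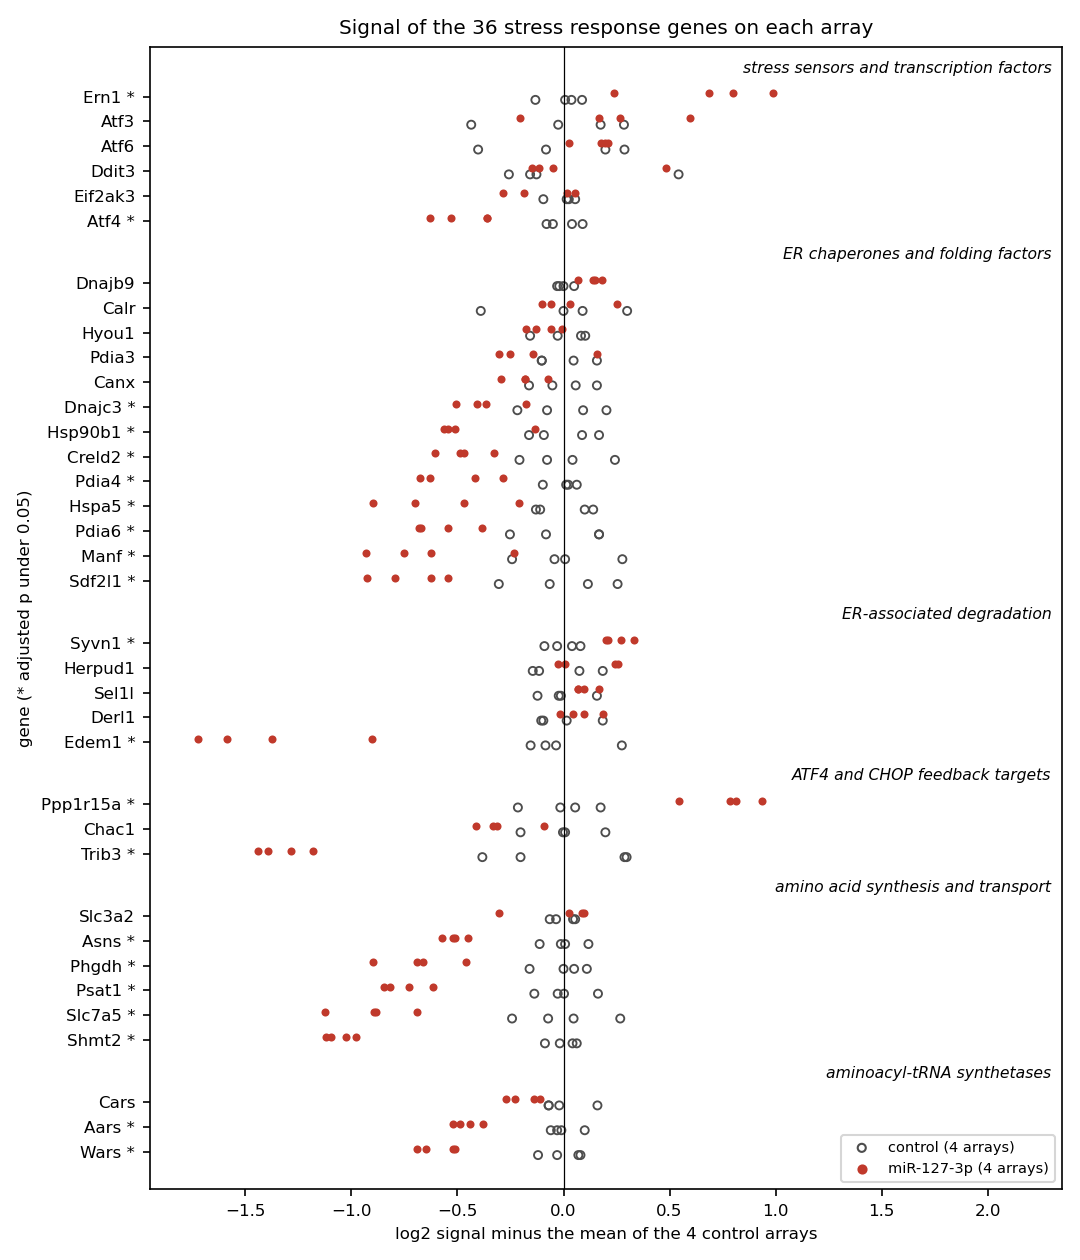
Signal of each of the 36 genes on each array, as the log2 signal minus the mean of the 4 control arrays (x axis), with genes grouped by role (y axis); open circles are the 4 control arrays, filled circles the 4 miR-127-3p arrays, and an asterisk marks an adjusted p under 0.05. The mimic arrays of Edem1 and Trib3 lie farthest to the left, and those of Ern1 and Ppp1r15a to the right of all controls.

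Among the sensors and transcription factors, the messages moved in different directions. Levels here and below are log2 signals relative to each array's 75th percentile. Ern1, the IRE1 sensor, read -0.09, -0.31, -0.14 and -0.17 in controls 1, 3, 6 and 8 and 0.81, 0.51, 0.06 and 0.62 in miR-127-3p 2, 4, 5 and 7. The groups did not overlap, and the lowest mimic array, miR-127-3p 5, lay close to the controls; the log2 fold change was 0.68 (adjusted p = 0.00989, SE 0.15), a 1.60-fold rise. Within slide row 1 and row 2 alone, with 2 arrays per group each, the median of the 6 sensors and factors was 0.31 and -0.15.

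Atf4, the transcription factor of the amino acid response, went the other way. It read 8.28, 8.19, 8.16 and 8.33 in the controls and 7.88, 7.71, 7.88 and 7.61 with the mimic, with no overlap. Its log2 fold change was -0.47 (adjusted p = 0.00477, SE 0.09), and its second probe gave -0.42 (SE 0.11, adjusted p = 0.0160 over probes). ATF4 is controlled chiefly at translation, so the message does not measure the protein.

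The other sensors and factors did not pass the test, and their 95% intervals give the sizes that remain possible. The log2 fold change was -0.10 for Eif2ak3 (95% interval -0.32 to 0.12, adjusted p = 0.462), 0.15 for Atf6 (-0.19 to 0.49, adjusted p = 0.461) and 0.21 for Atf3, a stress factor downstream of ATF4 (-0.25 to 0.67, adjusted p = 0.461). Ddit3, which encodes CHOP, the death-promoting factor of prolonged ER stress, read 3.04, 3.17, 3.14 and 3.84 in the controls and 3.78, 3.25, 3.18 and 3.15 with the mimic. In each group 1 array stood high (control 8 and miR-127-3p 2), and the log2 fold change was 0.04 (95% interval -0.43 to 0.51, adjusted p = 0.900).

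Among all genes with a symbol 20.1% were lower and 18.2% higher with the mimic. Chaperones and folding factors of the ER lumen fell in 8 of 13 cases and rose in 0 (limma, 0 also at an unadjusted p under 0.05). The largest fall was that of Sdf2l1, a partner of ER J-proteins that is strongly induced by ER stress. It read 1.51, 1.83, 1.69 and 1.27 in the controls and 0.65, 0.95, 1.03 and 0.78 with the mimic. The groups did not overlap, and the log2 fold change was -0.72 (adjusted p = 0.00482, SE 0.14), a 1.65-fold fall.

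Hspa5 encodes BiP, the main Hsp70 of the ER, which also holds the sensors inactive. Its signal was 7.36, 7.32, 7.11 and 7.09 in the controls and 6.32, 6.52, 7.01 and 6.75 in miR-127-3p 2, 4, 5 and 7. All mimic arrays lay below all controls, but miR-127-3p 5 came within a small distance of control 8; the log2 fold change was -0.57 (adjusted p = 0.0197, SE 0.15). Leaving out control 1 raised the adjusted p to 0.0556, and leaving out miR-127-3p 4 raised it to 0.0575, both above 0.05.

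Hsp90b1, the ER-resident Hsp90 (GRP94), showed the same array apart: 6.84, 6.76, 6.58 and 6.51 in the controls, and 6.16, 6.11, 6.54 and 6.13 with the mimic, where miR-127-3p 5 overlapped the controls. Its log2 fold change of -0.44 (adjusted p = 0.0255, SE 0.12) no longer passed once control 1, control 3 or miR-127-3p 2, 4 or 7 was left out (adjusted p = 0.0542 to 0.0730). Manf, a secreted protein that protects cells from ER stress, read 4.33, 4.60, 4.28 and 4.08 in the controls and 3.39, 3.57, 4.09 and 3.70 with the mimic, where again only miR-127-3p 5 reached the lowest control. The log2 fold change of Manf was -0.63 (adjusted p = 0.0190, SE 0.17; adjusted p = 0.0547 without miR-127-3p 4).

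The protein disulfide isomerases, which form and rearrange disulfide bonds, were split. Pdia6 (-0.57, SE 0.12, adjusted p = 0.00731) and Pdia4 (-0.50, SE 0.10, adjusted p = 0.00628) fell with no overlap between groups; Pdia4 read 2.64 to 2.80 in controls and 2.06 to 2.45 with the mimic. The second probe of Pdia6 gave -0.22 and did not pass (adjusted p = 0.133 over probes). Pdia3, the isomerase that works on glycoproteins together with calnexin and calreticulin, had a log2 fold change of -0.13 (95% interval -0.41 to 0.14, adjusted p = 0.422), and those lectins themselves had -0.18 (Canx, -0.40 to 0.03, adjusted p = 0.167) and 0.03 (Calr, -0.31 to 0.38, adjusted p = 0.888). None of these 3 genes of the glycoprotein folding cycle passed the test.

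Creld2, a disulfide-linked folding factor induced by ER stress, read 5.16, 5.36, 5.04 and 4.91 in controls and 4.51, 4.79, 4.65 and 4.63 with the mimic, without overlap. It fell by 0.47 on the log2 scale (adjusted p = 0.0128, SE 0.11). Dnajc3, the J-protein P58IPK, had a log2 fold change of -0.36 (adjusted p = 0.0387, SE 0.11). That call was lost without any 1 of 6 arrays (controls 1, 3 or 6, miR-127-3p 2, 5 or 7; adjusted p = 0.0588 to 0.101) and when slide column was blocked (adjusted p = 0.121). Dnajb9, the J-protein ERdj4, read 1.13 to 1.21 in controls and 1.23 to 1.34 with the mimic; the groups did not overlap, but the log2 fold change of 0.13 did not pass (adjusted p = 0.159, SE 0.07). Hyou1, an exchange factor for BiP, had a log2 fold change of -0.09 (95% interval -0.29 to 0.10, adjusted p = 0.434).

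The chaperone values differed between the slide rows. Their median log2 fold change was -0.59 in row 1 and -0.22 in row 2, which holds miR-127-3p 5. In these rows 4 and 0 of the 13 genes were called lower (limma, 2 arrays per group; 8 and 1 at an unadjusted p under 0.05). Of all 17093 features 991 and 926 were lower in these rows, beside 3134 with all 8 arrays. The difference between rows was not tested. Without control 1 or without miR-127-3p 4 the number of chaperones lower was 5, and without miR-127-3p 5 it was 7. Over all features, leaving out 1 array gave 2456 to 3073 lower. Without the filter on dim probes 3 chaperones were lower (Sdf2l1, Pdia4 and Pdia6), beside 2013 of all features. There the calls of Creld2 (limma adjusted p = 0.0566), Manf (0.0648), Hspa5 (0.0696), Hsp90b1 (0.0942) and Dnajc3 (0.136) were lost at the same fold changes.

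**Figure D2:**
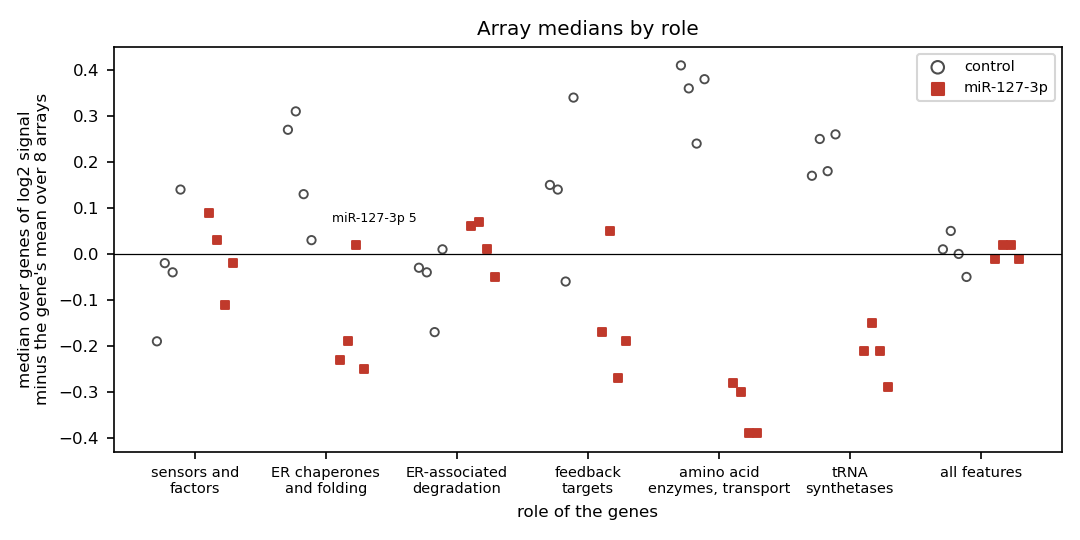
Median over the genes of each role of the log2 signal minus the gene's mean over the 8 arrays (y axis), for each role and for all features (x axis); open circles are control arrays and filled squares miR-127-3p arrays. The groups are separate for amino acid enzymes and transport (controls 0.24 to 0.41, mimic -0.39 to -0.28) and for tRNA synthetases, whereas miR-127-3p 5 (0.02) lies next to the lowest control (0.03) for the chaperones.

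Several promoters of these chaperones hold the same element, which is shown because it is the best known link between such genes. The ER stress response element, ERSE, consists of CCAAT, 9 free bases and CCACG, and is bound by NF-Y and ATF6. It was searched on both strands in 300-base windows of RefSeq promoters (GRCm38.p6, 250 bases before to 50 after the start), which were matched for 29 of the 36 genes. It was found in 8 of those 29, of which 7 are chaperones (of 11 matched), and in 0.137% of all 27025 genes with a window. The genes were chosen for known roles and the element is known from such promoters, so this contrast is a description and no test. Of these 8 genes, 5 were lower, 1 (Syvn1) was higher, and Calr and Canx did not pass. The 5 lower genes are all chaperones, a list in which 8 of 13 fell. Among all genes with a symbol 20.1% were lower and 18.2% higher. Whether the element goes with the fall was not tested. Of the other 3 chaperones that fell, Sdf2l1 and Pdia4 had no match in their windows, and Manf had no window. Each match is given in the direction of the element, with its fixed letters in capitals.
Hspa5: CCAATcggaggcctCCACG
Hsp90b1, first match: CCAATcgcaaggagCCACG
Hsp90b1, second match: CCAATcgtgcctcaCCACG
Pdia6: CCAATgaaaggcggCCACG
Dnajc3: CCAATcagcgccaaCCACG
Creld2: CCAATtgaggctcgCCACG
Calr: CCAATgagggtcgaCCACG
Canx: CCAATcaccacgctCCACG
Syvn1: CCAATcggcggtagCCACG

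The setting of the element is shown for BiP and GRP94, whose promoters are the classical examples. The 250 bases before the start are chr2:34771840-34772089 on the plus strand for Hspa5 and chr10:86705445-86705694 on the minus strand for Hsp90b1 (GRCm38.p6). Capitals mark the fixed letters of exact ERSE matches. Copies of the element with a changed letter were not searched for and are not marked. The second match in Hsp90b1 lies on the opposite strand and reads in reverse.
Hspa5: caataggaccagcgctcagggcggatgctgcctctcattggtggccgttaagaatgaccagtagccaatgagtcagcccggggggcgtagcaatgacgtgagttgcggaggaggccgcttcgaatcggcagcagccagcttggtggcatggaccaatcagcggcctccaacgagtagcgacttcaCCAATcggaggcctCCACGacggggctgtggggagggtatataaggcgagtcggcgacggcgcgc
Hsp90b1: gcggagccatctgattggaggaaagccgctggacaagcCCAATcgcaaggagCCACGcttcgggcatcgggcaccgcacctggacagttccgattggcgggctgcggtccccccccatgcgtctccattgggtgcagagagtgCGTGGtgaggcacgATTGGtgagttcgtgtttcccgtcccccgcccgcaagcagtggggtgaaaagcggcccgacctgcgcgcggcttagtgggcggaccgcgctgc

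The related element ERSE-II (ATTGG, 1 free base, CCACG) was found in Herpud1 alone among the 29 genes (0.0444% of all genes), and the UPRE core (TGACGTGG) in 0 of them (0.714% of all genes). These matches describe letters in the window and show neither binding nor a cause.

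Genes of ER-associated degradation, which export misfolded proteins for destruction by the proteasome, were lower in 1 of 5 cases (Edem1) and higher in 1 (Syvn1), against 20.1% and 18.2% of all genes with a symbol. Edem1 encodes a lectin-like protein that hands misfolded glycoproteins over to this pathway. It read 2.33, 2.28, 2.21 and 2.64 in the controls and 0.99, 0.64, 1.46 and 0.78 in the mimic samples. The gap between the groups was wide, and its log2 fold change of -1.39 (adjusted p = 0.000695, SE 0.18) was the largest of the 36 genes, a 2.63-fold fall and the 285th lowest of the 12031 genes with a symbol.

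Syvn1, the ubiquitin ligase HRD1 of the same pathway, rose slightly, from 4.50 to 4.67 in controls to 4.79 to 4.92 with the mimic. The log2 fold change was 0.25 (adjusted p = 0.0300, SE 0.07). It was lost without any 1 of the 7 arrays other than control 3 (adjusted p = 0.0518 to 0.0810), with normexp (adjusted p = 0.101), without the filter on dim probes (adjusted p = 0.157) and when slide column was blocked (adjusted p = 0.108). Its cofactor Sel1l had a log2 fold change of 0.10 (95% interval -0.09 to 0.29, adjusted p = 0.390), Derl1, a channel subunit, 0.08 (-0.13 to 0.29, adjusted p = 0.536), and the scaffold Herpud1 0.12 (-0.13 to 0.37, adjusted p = 0.445).

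The 3 feedback targets of ATF4 and CHOP went apart. Trib3, a pseudokinase that restrains ATF4, read 6.64, 5.97, 6.15 and 6.65 in the controls and 5.17, 5.07, 4.96 and 4.91 with the mimic. The mimic arrays lay close together and well below all controls, with a log2 fold change of -1.32 (adjusted p = 0.000578, SE 0.17), a 2.50-fold fall.

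Ppp1r15a, or GADD34, directs the phosphatase that reverses eIF2 phosphorylation and so restarts translation. It read 4.43, 4.04, 4.31 and 4.24 in the controls and 5.04, 5.19, 4.80 and 5.07 with the mimic. It was higher on every mimic array than on any control array, by 0.77 on the log2 scale (adjusted p = 0.00145, SE 0.12), or 1.71-fold. Chac1, which degrades glutathione, had a log2 fold change of -0.29 (adjusted p = 0.0731, SE 0.11); it passed without control 6 (-0.36, adjusted p = 0.0442), with normexp (adjusted p = 0.0493) and with limma's trend and robust options (adjusted p = 0.0466).

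**Figure D3:**
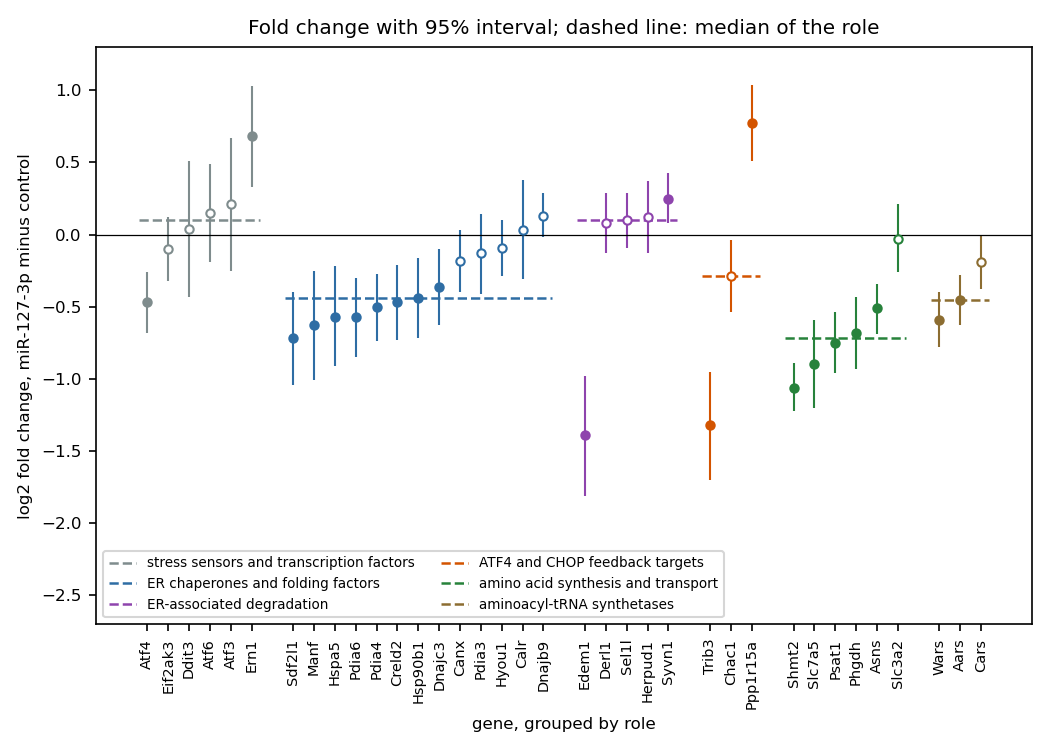
Log2 fold change, miR-127-3p minus control, with its 95% interval (y axis) for each of the 36 genes, ordered within its role (x axis); filled symbols passed an adjusted p of 0.05, open symbols did not, and dashed lines are the medians of the roles. Edem1 (-1.39) and Trib3 (-1.32) lie lowest, Ppp1r15a (0.77) and Ern1 (0.68) highest.

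All 4 enzymes of amino acid synthesis fell, with no overlap between the groups on any of them. Among all genes with a symbol 20.1% were lower, and on 21.0% every mimic array lay below every control array. Shmt2, the mitochondrial enzyme that splits serine to feed one-carbon units into folate, read 5.02, 5.15, 5.09 and 5.17 in the controls and 3.99, 4.13, 4.01 and 4.08 with the mimic. The spread within each group was small beside the gap, and the log2 fold change was -1.06 (adjusted p = 3.27e-05, SE 0.07), a 2.08-fold fall.

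Both listed enzymes of serine synthesis fell. Phgdh, which opens the pathway, had a log2 fold change of -0.68 (adjusted p = 0.00217, SE 0.11), with 6.81 to 7.08 in controls and 6.07 to 6.51 with the mimic, and its second probe gave -0.69. Psat1, the aminotransferase of the next step, read 6.40, 6.21, 6.10 and 6.24 in the controls and 5.62, 5.51, 5.39 and 5.42 with the mimic. Its log2 fold change was -0.75 (adjusted p = 0.000505, SE 0.09), and its second probe gave -0.65. Asns, asparagine synthetase and the standard reporter of ATF4 activity, read 7.30, 7.19, 7.17 and 7.07 in the controls and 6.73, 6.67, 6.61 and 6.66 with the mimic, a log2 fold change of -0.51 (adjusted p = 0.00137, SE 0.08).

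The 2 chains of the CD98 amino acid transporter did not move together. Slc7a5, the light chain LAT1 that carries leucine and other large neutral amino acids, read 3.12, 3.00, 2.83 and 3.34 in the controls and 2.18, 1.95, 2.38 and 2.19 with the mimic. It fell without overlap, with a log2 fold change of -0.90 (95% interval -1.20 to -0.59, adjusted p = 0.00140); its second probe gave -0.40 and did not pass (adjusted p = 0.107 over probes). Slc3a2, the heavy chain that brings the light chain to the membrane and also pairs with other light chains, had a log2 fold change of -0.03 (95% interval -0.26 to 0.21, adjusted p = 0.869). The difference Slc7a5 minus Slc3a2 within an array was -3.76 to -3.25 in controls and -4.69 to -3.86 with the mimic (log2), a contrast that was singled out after its values were seen and was not tested.

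The aminoacyl-tRNA synthetases, which load amino acids onto transfer RNA, fell in 2 of 3 cases, beside 20.1% of all genes with a symbol. Wars, for tryptophan, read 5.48, 5.49, 5.29 and 5.38 in the controls and 4.89, 4.76, 4.90 and 4.72 with the mimic. Its log2 fold change was -0.59 (adjusted p = 0.00103, SE 0.08), and a probe for another transcript gave -0.77. Aars, for alanine, fell by 0.45 on the log2 scale (adjusted p = 0.00227, SE 0.07; 5.87 to 6.03 in controls, 5.41 to 5.55 with the mimic). Cars, for cysteine, read 5.98 to 6.21 in controls and 5.78 to 5.94 with the mimic; the groups did not overlap, and the log2 fold change of -0.19 did not pass (adjusted p = 0.119, SE 0.08).

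ATF4 binds the composite C/EBP-ATF element, searched here as TGATGNAA on both strands of the same windows. It was found in 6 of the 29 matched genes and in 4.51% of all genes with a window. Here too the genes were chosen for known roles, so the contrast is a description and no test. Asns, Trib3 and Aars held it and fell, while Chac1, Atf3 and Herpud1 held it and did not pass the test. Of all 36 genes 18 were lower, and of all genes with a symbol 20.1%. Whether this element goes with the fall was not tested. Of the 5 matched genes of amino acid synthesis and transport only Asns held an exact match of the element in its window. Sites outside the windows or with other letters were not searched for. The matches are printed with 6 bases on either side, in the direction of the element, with its fixed letters in capitals.
Asns: gccacaTGATGaAActtccc
Trib3: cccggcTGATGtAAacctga
Aars, first match: ctcggcTGATGcAAtgctca
Aars, second match: gcgctcTGATGaAAagtgac
Chac1: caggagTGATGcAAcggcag
Atf3: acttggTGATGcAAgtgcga
Herpud1: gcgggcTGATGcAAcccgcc

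In Asns the element lies 23 bases before the start. The 250 bases before the start, chr6:7693210-7693459 on the minus strand of GRCm38.p6, are shown since this promoter is the textbook site of the amino acid response.
Asns: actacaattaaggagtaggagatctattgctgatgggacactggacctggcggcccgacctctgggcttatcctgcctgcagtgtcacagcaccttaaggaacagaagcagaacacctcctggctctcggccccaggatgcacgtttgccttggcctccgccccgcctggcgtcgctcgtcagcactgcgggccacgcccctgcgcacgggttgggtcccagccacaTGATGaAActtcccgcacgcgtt

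Other genes of the same pathways, listed by function, were read from the same fit. Of 23 further tested ATF4 targets, 15 were lower and 2 higher, beside 20.1% and 18.2% of all genes with a symbol. Their median log2 fold change was -0.43. Among the 15 are Shmt1, described below, and Cbs, named here only because it was dim with the mimic. Cbs was well above background on 4 control arrays and 1 mimic array. Both genes passed the filter through the controls, so their places among the 15 are a description. The folate enzyme Mthfd1l (-0.94, SE 0.08, adjusted p = 9.56e-05) and the stress-induced chromatin protein Nupr1 (-0.82, SE 0.09, adjusted p = 0.000338) fell. Shmt1, the cytosolic counterpart of Shmt2, was measured well above background on every control array but on only 1 of 4 mimic arrays, so its measured log2 fold change of -1.78 (adjusted p = 6.29e-05) rests mostly on mimic signals not well above background. Its second probe, above background on all 8 arrays, gave -0.40 (adjusted p = 0.215 over probes), and Shmt1 did not pass with a filter that keeps only that probe (adjusted p = 0.190). The higher genes were Sesn2, a stress-induced inhibitor of mTORC1 signalling named here after its values were seen (0.25, adjusted p = 0.0429), and Gdf15, a stress hormone that is also a p53 target. Sesn2 passed in only 8 of the 20 alternative ways of processing (limma adjusted p up to 0.314). Gdf15 read 2.60, 2.38, 2.15 and 2.45 in the controls and 3.51, 3.96, 3.19 and 3.53 with the mimic, a log2 fold change of 1.15 (adjusted p = 0.00116, SE 0.17).

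The other cytosolic tRNA synthetases fell in 8 of 17 cases and rose in 0, beside 20.1% and 18.2% of all genes with a symbol. At an unadjusted p under 0.05 (limma) the counts were 10 and 0, and the median was -0.22. The 4 of smallest adjusted p were Vars, for valine (-0.82, SE 0.10, adjusted p = 0.000537), Lars, for leucine (-0.76, SE 0.10, adjusted p = 0.000954), Kars, for lysine (-0.37, SE 0.07, adjusted p = 0.00569) and Mars1, for methionine (-0.34, SE 0.07, adjusted p = 0.00749). Lars read 5.26, 5.07, 5.08 and 5.28 in the controls and 4.59, 4.23, 4.51 and 4.32 with the mimic.

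Further genes of the ER were read as well. Of 21 other folding factors 5 were lower and 1 higher (median -0.12), against the 20.1% and 18.2% of all genes with a symbol. Txndc5, a disulfide isomerase, read 2.96, 3.37, 3.25 and 3.13 in the controls and 1.62, 1.53, 2.32 and 1.66 with the mimic, a log2 fold change of -1.40 (adjusted p = 0.000653, SE 0.18). Ero1b, an oxidase that recharges the isomerases, was at least 1.66-fold lower (adjusted p = 0.000595). It was well above background on 4 control arrays and 0 mimic arrays, so it passed the filter only through the group where it was high and had to differ, and its place among the 5 lower genes is a description. For this bound each mimic array entered at its dimmest probe well above background, or at Ero1b itself where that was brighter, and the controls at their measured mean. Fkbp2, a prolyl isomerase (-0.84, SE 0.11, adjusted p = 0.000769), and Mogs, which trims new glycans (-0.54, SE 0.08, adjusted p = 0.00100), fell as well.

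For the translocon and signal peptide genes the count was 4 lower of 15 and 0 higher (limma, 1 at an unadjusted p under 0.05), with a median of -0.03. Among all genes with a symbol 20.1% were lower and 18.2% higher. Spcs3, a signal peptidase subunit, had a log2 fold change of -0.95 (adjusted p = 0.0108, SE 0.22), with its second probe at -0.32, and Ssr2, a translocon-associated subunit, -0.41 (adjusted p = 0.0138, SE 0.10). The calls of Ssr1 (-0.36) and Tram1 (-0.40) were lost when control 1, miR-127-3p 4 or miR-127-3p 7 was left out, and that of Tram1 also without control 3 or miR-127-3p 2 (adjusted p = 0.0522 to 0.0603 and 0.0533 to 0.0840). A second, dimmer probe of Ssr1 gave -1.10 (adjusted p = 0.00151 over probes).

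Of 17 other degradation genes 3 were lower and 1 higher, with a median of -0.03; the share lower was close to the 20.1% of all genes with a symbol. The lectin Os9 (0.30, adjusted p = 0.0190), its relative Erlec1 (-0.59, adjusted p = 0.0261) and the segregase cofactors Ufd1 (-0.30, adjusted p = 0.0276) and Nploc4 (-0.29, adjusted p = 0.0442) each lost the call when 1 array was left out (adjusted p up to 0.103). For Os9 this held for miR-127-3p 4 and 7 and control 8, for Erlec1 for these and control 1, for Ufd1 for controls 1, 3 and 6 and miR-127-3p 2, 4 and 7, and for Nploc4 for those 6 and control 8.

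Among 15 further sensors and factors 4 were higher and 2 lower, beside 18.2% and 20.1% of all genes with a symbol. Eif2ak2, the RNA-activated eIF2 kinase PKR that interferon induces, averaged 0.96 (SD 0.09, n = 4) in the controls and 1.86 (SD 0.28, n = 4) with the mimic without overlap, a log2 fold change of 0.91 (adjusted p = 0.00154, SE 0.14). Creb3, a factor cut at the Golgi like ATF6, rose by 0.62 (adjusted p = 0.00231, SE 0.10). Eif2s1, the eIF2 subunit that these kinases phosphorylate, had a log2 fold change of -0.48 (adjusted p = 0.00355, SE 0.09; second probe -0.46), and Cebpg, the partner of ATF4 on the composite element, one of -0.29 (adjusted p = 0.0146, SE 0.07).

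**Figure D4:**
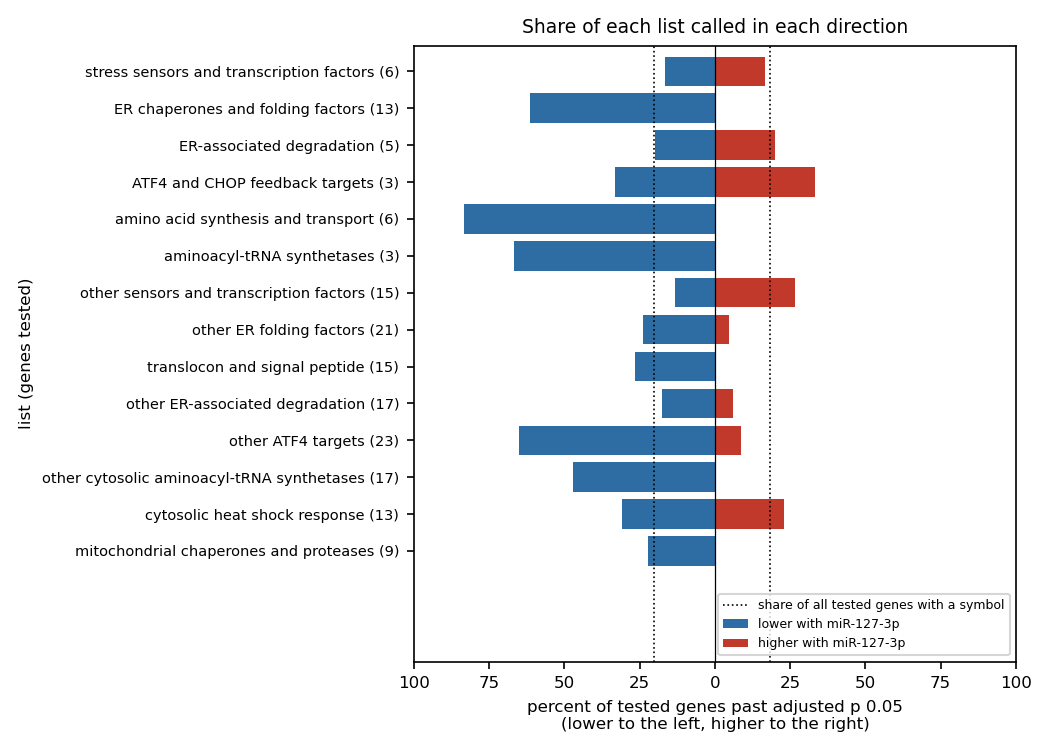
Percent of the tested genes of each list (y axis, number tested in brackets) that passed an adjusted p of 0.05, lower with miR-127-3p to the left and higher to the right (x axis); dotted lines mark the shares among all tested genes with a symbol, 20.1% and 18.2%. Amino acid synthesis and transport (5 of 6 lower), the tRNA synthetases (2 of 3), further ATF4 targets (15 of 23) and ER chaperones (8 of 13) reach farthest to the left, while the degradation lists (1 of 5 and 3 of 17 lower) stay near the dotted line.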

How the data were processed

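Per the file headers, each spot's deposited intensity was background-subtracted and detrended by Feature Extraction 11.5.1.1 on 1-colour Agilent arrays. A second deposited table has log2 values. Compared with the scanner signals, its columns equal log2 intensity after a shift by 1 constant for the array (SD over probes at most 2.78e-07), with column medians of -3.78, -3.68, -3.60, -3.69, -3.68, -3.62, -3.60 and -3.67 for samples 1 to 8. Its 75th percentile is about 0 on every array and genes are not centred; the settings of GeneSpring 14.9.1, named in the series' text, are not stated.

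Control spots (3671 of 62976) and outlier spots were left out, and spots of a probe averaged on the log2 scale (55681 probes). Each array's 75th percentile was subtracted. Probes well above background on at least 4 of 8 arrays were kept, and the brightest per gene was used. Accessions matched RefSeq symbols (GRCm38.p6) for 28331 probes, and Cars, Aars and Wars are RefSeq's names for Cars1, Aars1 and Wars1. The 2 groups entered a linear model per feature (limma 3.58.1, R 4.3.3, eBayes; two-sided p-values adjusted after Benjamini-Hochberg over all features); the script was tested on simulated data. Each array had 20756 to 23472 probes well above background, and the number of arrays limits the precision.

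Members and lists were chosen with earlier results of these data known, so no p-value over a list is given. Named are all 36 genes and up to 4 genes of smallest adjusted p per further list. Alternatives were normexp (offset 50, on median spot signals, as the files used hold no mean signal), quantile and median scaling, the deposited table, other filters and probe rules, slide row or column as a block, each row alone, trend and robust options, and leaving out each array.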

Additional observations from a re-analysis of the deposited data

Results flagged for a closer look

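In 3 of 72 groups of 4 arrays, 1 array stood apart from the other 3 by more than Dixon's 95% critical value, where chance gives about 1 in 20. For Ddit3 these were control 8 (gap over range 0.831; 3.84, the other controls 3.04 to 3.17) and miR-127-3p 2 (0.835; 3.78, the other mimic arrays 3.15 to 3.25). For Hsp90b1 it was miR-127-3p 5 (0.882; 6.54, the other mimic arrays 6.11 to 6.16).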

How the results depend on the processing

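All 21 called genes kept their sign in the 20 alternatives, and 15 of them passed in all 18 that keep both slide rows. Leaving out 1 array at a time gave 15 to 18 genes lower and 2 to 3 higher (1864 to 2899 features higher and 2456 to 3073 lower over all features), and medians of -0.01 to 0.23 for sensors and factors, -0.49 to -0.38 for chaperones, 0.06 to 0.14 for degradation genes, -0.36 to -0.22 for feedback targets, -0.76 to -0.66 for amino acid genes and -0.48 to -0.42 for synthetases. Within slide row 1 alone (2 arrays per group) 9 genes were lower and 1 higher (991 and 768 features), and within row 2 alone 4 and 0 (926 and 685 features; limma, 11 and 2 genes at an unadjusted p under 0.05); fewer arrays enter there. The medians in row 1 and row 2 were 0.31 and -0.15 for sensors and factors and -0.59 and -0.22 for chaperones. They were -0.37 and -0.53 for synthetases and -0.64 and -0.78 for amino acid genes. Without the filter on dim probes 13 genes were lower, 3 of them chaperones, and 2013 features lower and 1644 higher, with more features sharing the adjustment. With slide column as a block 1780 features were higher; the cause was not tested. The labels state no pairing of samples, so whether they were paired is unknown and no paired analysis was run.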

Other observations

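Chaperones outside the ER were read from the same fit. Of 13 tested genes of the cytosolic heat shock response 4 were lower and 3 higher with the mimic, beside 20.1% and 18.2% of all genes with a symbol. Stip1, which links Hsp70 to Hsp90, had a log2 fold change of -0.47 (adjusted p = 0.00305, SE 0.08) and Ahsa1, the activator of Hsp90, -0.30 (adjusted p = 0.0116, SE 0.07). The inducible Hsp70 gene Hspa1a rose by 0.50 (adjusted p = 0.0105, SE 0.11); its near-identical copy Hspa1b was not analysed here, and signal from both cannot be told apart. The small heat shock gene Hspb1 had a log2 fold change of 1.04 (adjusted p = 0.0210, SE 0.28), lost without miR-127-3p 4 or control 6 (adjusted p = 0.0533 and 0.0566).

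Of 9 mitochondrial chaperones and proteases 2 were lower and 0 higher (limma; 4 and 0 at an unadjusted p under 0.05), and the share lower was close to the 20.1% of all genes with a symbol. Hspd1, the mitochondrial Hsp60, fell by 0.54 on the log2 scale (adjusted p = 0.00259, SE 0.09). The protease Lonp1 had a log2 fold change of -0.30 (adjusted p = 0.0352), lost without any 1 of 6 arrays (controls 1, 6 or 8, miR-127-3p 4, 5 or 7; adjusted p = 0.0570 to 0.0885). The partner of Hspd1, Hspe1, had a log2 fold change of -0.22 (adjusted p = 0.0962) and Hspa9 of -0.28 (adjusted p = 0.0552).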
